A study of Mus musculus with 14 samples.

Results

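The 38 genes described here encode nuclear receptors other than the retinoid receptors, Esrrb and Nr5a2, and they were taken by name from 21887 protein-coding genes. Binding of p300, RXRα, Sp5 and Zeb2 was mapped by chromatin immunoprecipitation and sequencing (ChIP-seq) in mouse embryonic stem cells (mESCs) and in gastruloids, aggregates of such cells that elongate in culture and form derivatives of the early embryo. Peaks of the 2 replicates of a group were merged, stretches listed in both were kept as the group's regions, and a region belonged to a gene when that gene's end was the nearest protein-coding gene end within 100 kb of the strongest summit. By this rule 51 p300 regions in mESCs, 101 p300 regions in gastruloids, 64 RXRα regions in mESCs, 11 RXRα regions in gastruloids, 28 Sp5 regions and 26 Zeb2 regions lay at the 38 genes. The whole series held 31014, 53025, 24698, 2352, 10953 and 10172 regions in the same order.

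All libraries came from the E14_triple reporter line, an ES line that also carries BRA-GFP and SOX17-RFP reporters. The p300 groups carried endogenous p300-V5-miniTurboID, a fusion of p300 to a V5 tag and a biotin ligase, and were precipitated with a V5 antibody. In the RXRα, Sp5 and Zeb2 groups the endogenous protein carried an HA tag joined to FKBP12F36V, a degron, and an HA antibody was used. The mESCs were kept in serum with leukemia inhibitory factor. Gastruloids were grown from 300 sorted cells for 120 h, with 3 µM CHIR99021, an activator of Wnt signalling, given from 48 h. There were 2 replicates in each of the 6 immunoprecipitation groups and 1 input for each cell type, both inputs from the p300 line. The labels name neither the number of clones nor whether replicates were separate cultures, so the spread between replicates may be technical.

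Nuclear receptors are transcription factors that bind DNA through zinc fingers and, in most cases, change activity when a lipid-soluble ligand fills their ligand-binding domain. Many bind variants of the half-site AGGTCA, singly or as repeats. RXRα is the common dimer partner of the receptors for oxysterols, bile acids, xenobiotics, fatty acids, thyroid hormone and vitamin D, and it also pairs with NR4A1 and NR4A2. Ligand-bound receptors recruit coactivators, among them p300, a histone acetyltransferase whose presence marks active enhancers and promoters. Sp5 acts downstream of Wnt as a zinc-finger regulator, and Zeb2 is a zinc-finger repressor of epithelial genes. The regions describe binding at the loci that encode these receptors, not binding by the receptors themselves.

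Promoter sequences were at hand for 34 of the 38 genes, from RefSeq on build GRCm38.p6, as windows of 300 bases (250 before and 50 after each start site). Below are the upstream 250 bases, 5′ to 3′ along transcription, of the 4 genes whose promoter window lay under an RXRα region in both cell types, and of 2 genes whose window lay under an RXRα region in mESCs and held a half-site. Any exact AGGTCA or its reverse complement is in capitals. The sequence of Nr2c1 lies at chr10:94147681-94147930 (plus strand), that of Nr2c2 at chr6:92092183-92092432 (plus) and that of Nr4a2 at chr2:57124004-57124253 (minus). The sequence of Esrra lies at chr19:6921809-6922058 (minus), that of Nr1d2 at chr14:18239107-18239356 (minus) and that of Thrb at chr14:17660710-17660959 (plus).
Nr2c1: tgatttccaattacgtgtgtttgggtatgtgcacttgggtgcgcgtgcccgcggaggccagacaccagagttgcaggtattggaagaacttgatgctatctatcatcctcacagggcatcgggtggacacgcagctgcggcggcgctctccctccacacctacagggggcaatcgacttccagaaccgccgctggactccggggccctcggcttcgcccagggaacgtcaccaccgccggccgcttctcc
Nr2c2: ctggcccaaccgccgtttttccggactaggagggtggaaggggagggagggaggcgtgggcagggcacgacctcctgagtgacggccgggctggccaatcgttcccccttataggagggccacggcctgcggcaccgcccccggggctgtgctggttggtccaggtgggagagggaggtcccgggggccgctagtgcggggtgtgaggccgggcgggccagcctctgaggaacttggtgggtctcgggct
Nr4a2: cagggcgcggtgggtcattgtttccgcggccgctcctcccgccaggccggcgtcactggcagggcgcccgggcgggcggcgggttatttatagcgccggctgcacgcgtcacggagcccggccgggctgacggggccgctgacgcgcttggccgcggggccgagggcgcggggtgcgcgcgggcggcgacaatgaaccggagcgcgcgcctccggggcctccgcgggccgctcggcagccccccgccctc
Esrra: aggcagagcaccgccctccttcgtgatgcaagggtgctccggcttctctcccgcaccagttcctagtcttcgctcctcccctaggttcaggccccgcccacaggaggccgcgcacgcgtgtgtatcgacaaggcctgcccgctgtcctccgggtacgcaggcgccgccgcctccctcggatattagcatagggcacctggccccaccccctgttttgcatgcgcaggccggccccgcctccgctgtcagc
Nr1d2: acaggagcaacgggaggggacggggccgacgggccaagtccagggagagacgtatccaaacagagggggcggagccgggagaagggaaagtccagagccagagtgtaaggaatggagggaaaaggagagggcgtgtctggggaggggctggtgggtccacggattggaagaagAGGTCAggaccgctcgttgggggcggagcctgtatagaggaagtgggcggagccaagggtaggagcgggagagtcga
Thrb: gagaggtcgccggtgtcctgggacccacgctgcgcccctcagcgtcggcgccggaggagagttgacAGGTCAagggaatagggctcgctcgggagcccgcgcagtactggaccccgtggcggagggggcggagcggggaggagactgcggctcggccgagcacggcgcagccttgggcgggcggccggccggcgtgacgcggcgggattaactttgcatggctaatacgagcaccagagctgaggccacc
No half-site stood in the first 4 sequences, and 1 stood in each of the last 2, starting at position -77 in Nr1d2 and -184 in Thrb, where -1 is the base before the start site.

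Cleared of peaks that met an input peak, the lists held 44506 and 35371 peaks for p300 in mESCs, 63117 and 75346 for p300 in gastruloids, 49661 and 28112 for RXRα in mESCs and 29867 and 3111 for RXRα in gastruloids. The Sp5 lists held 19714 and 11932 and the Zeb2 lists 44310 and 12222. The second RXRα gastruloid list was thus much shorter than the first, and every RXRα region of gastruloids rests on it. No input peak lay at any of the 38 genes. The tail bud and somite markers (T, Cdx2, Tbx6, Meox1, Pax3, Uncx) had 39 p300 regions found only in gastruloids and 1 found only in mESCs, whereas the mESC markers (Pou5f1, Nanog, Sox2, Klf4, Zfp42, Tfcp2l1, Esrrb, Tbx3) had 19 and 27. Peak lists hold no RNA levels, and in these bulk libraries a change in the share of a cell type and a change in binding per cell cannot be told apart.

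Nuclear receptor genes were occupied more often than the average gene in every group. At least 1 p300 region was found at 30 of the 38 genes in mESCs (78.9%, against 49.3% of all protein-coding genes) and at 34 in gastruloids (89.5%, against 68.2%). RXRα regions were found at 32 genes in mESCs (84.2%, against 49.4%) and at 10 in gastruloids (26.3%, against 8.74%). Sp5 was found at 22 (57.9%, against 39.9%) and Zeb2 at 20 (52.6%, against 33%). A region in all 6 groups was found at 4 of these genes, Nr1d2, Nr2c2, Nr6a1 and Ppara (10.5%, against 3.61% of all genes). Nr1h3 (the oxysterol receptor LXRα) and Nr1i3 (the xenobiotic receptor CAR), named after their values were seen, had none.

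The 38 genes also had more space around them than genes in general. The stretch within which a gene's end was the nearest, inside the limit of 100 kb, had a median of 94.9 kb for the 38 genes and 46.5 kb for all genes. The 38 genes held 0.28% of this territory over all genes, and 0.203% of the assigned p300 regions in mESCs, 0.238% in gastruloids, 0.287% and 0.519% of the RXRα regions, 0.265% of the Sp5 regions and 0.278% of the Zeb2 regions. Only for RXRα in gastruloids, with 11 regions, did the share of regions lie well above the share of territory, and no test was run on it. The part that territory plays in the other groups was not tested.

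The distance limit left regions out. Beyond 100 kb, but still nearest to 1 of the 38 genes, lay a further 28 p300 regions in mESCs, 74 in gastruloids, 14 and 2 RXRα regions, 5 Sp5 regions and 7 Zeb2 regions. Just inside it lay a gastruloid p300 region at Nr6a1, 99695 bp from the nearer gene end, with folds of 5.02 and 6.30 in the 2 replicates. Just outside lay another at the same gene, 101076 bp away, with folds of 4.61 and 3.15.

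**Figure D1:**
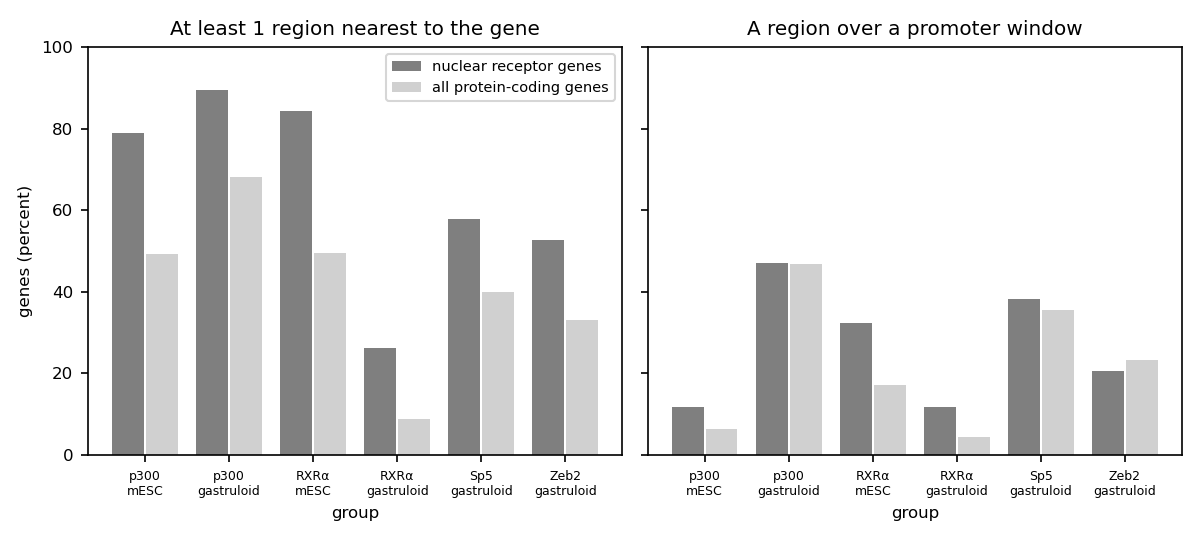
Percent of genes (y axis) with at least 1 region by nearest gene end (left) and with a region over a promoter window (right), in each of the 6 groups (x axis), for the nuclear receptor genes (dark bars; 38 on the left, 34 on the right) and for all protein-coding genes (light bars). On the left the dark bars are the higher in every group, from 26.3% against 8.74% for RXRα in gastruloids to 89.5% against 68.2% for p300 in gastruloids; on the right the bars for p300 in gastruloids are level at 47.1% and 46.9%.

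At promoters the shares differed by group. A p300 region of gastruloids covered the promoter window of 16 of the 34 genes (47.1%, against 46.9% of 17492 genes), and 1 of mESCs covered 4 (11.8%, against 6.32%). RXRα regions covered 11 windows in mESCs (32.4%, against 17.2%) and 4 in gastruloids (11.8%, against 4.46%), the latter at Nr2c1, Nr2c2, Nr4a2 and Esrra. Sp5 covered 13 (38.2%, against 35.6%) and Zeb2 7 (20.6%, against 23.2%). The Sp5, Zeb2 and gastruloid p300 shares were thus near the background, and the shares of RXRα in both cell types and of p300 in mESCs lay above it.

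p300 regions found in 1 cell type only came mostly from gastruloids, at these loci as over all genes. A region of gastruloids was called gastruloid-only where neither mESC library listed an overlapping peak, and mESC-only regions were defined in the same way. The 38 genes had 61 gastruloid-only and 17 mESC-only p300 regions, so that 78.2% of these 78 were gastruloid-only, against 71.1% of all 38239 assigned regions of a single cell type. Another 28 gastruloid regions were shared, meaning that they overlapped an mESC region, and 12 overlapped a peak of 1 mESC library or of both without a common region. Of the 31 genes with either class, 22 had more gastruloid-only regions (71.0%, against 69.8%), 4 had more mESC-only regions (12.9%, against 17.8%) and 5 had equal numbers. The 4 were Nr1h2, Nr1h4, Nr4a1 and Esr1.

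Counted by library, p300 peaks were more numerous in both gastruloid libraries than in both mESC libraries at 18 of the 38 genes (47.4%, against 37% of all genes) and fewer in both at 1, Nr1h2 (2.63%, against 5.84%). The gastruloid lists were the longer ones. With all 4 lists shortened to 35371 peaks the 38 genes had 39 gastruloid-only and 25 mESC-only regions, where gastruloid-only regions made up 49.6% of both classes over all genes, and 13 genes leaned to gastruloids and 8 to mESCs. Leaving out the first gastruloid list gave 95 gastruloid-only regions, and leaving out the second mESC list gave 31 mESC-only ones. The share of a library's assigned peaks that lay at the 38 genes was 0.216% and 0.201% in mESCs and 0.241% and 0.239% in gastruloids. The gastruloid libraries lay above the mESC libraries by 0.031 points, with an exact two-sided permutation p of 0.33, the smallest that 2 libraries against 2 allow.

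**Figure D2:**
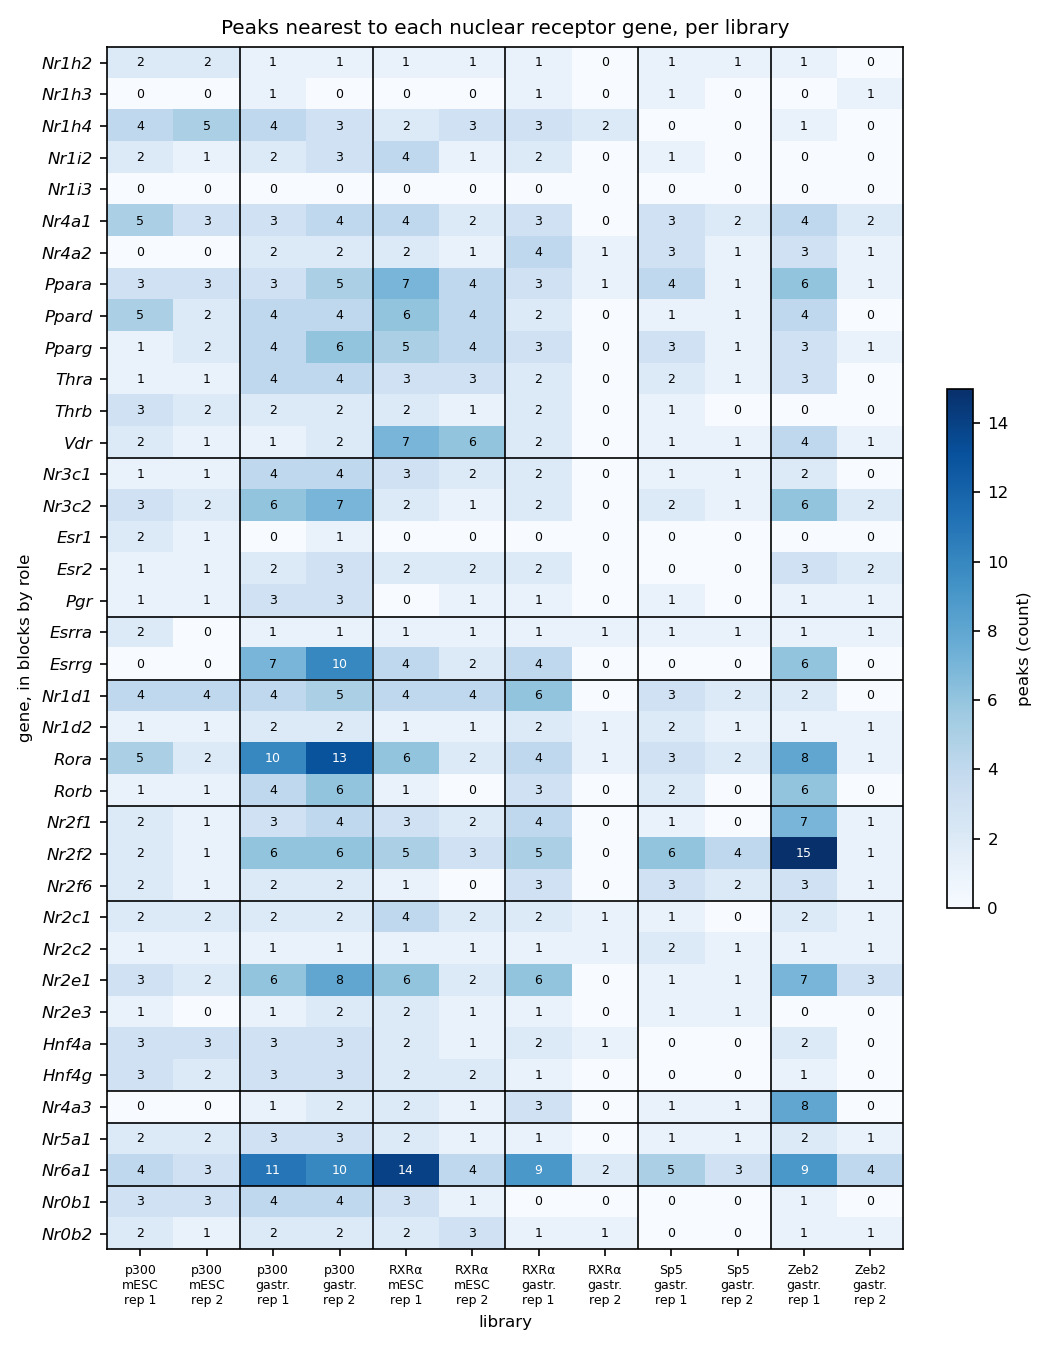
Number of peaks whose nearest gene end belongs to each gene (rows, in blocks by role) in each of the 12 immunoprecipitation libraries (columns, 2 replicates per group); darker blue is more peaks, up to 15. Esrrg has 0 and 0 p300 peaks in mESCs and 7 and 10 in gastruloids, Vdr has 7 and 6 RXRα peaks in mESCs and 2 and 0 in gastruloids, and the column of the second RXRα gastruloid library holds no count above 2.

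Among the 13 receptors that pair with RXR, p300 regions were divided most evenly, with 13 gastruloid-only and 8 mESC-only regions. Of these 8, 3 lay at Nr1h4 and 2 at Nr1h2. The other 25 genes had 48 and 9, and over all genes 71.1% of such regions were gastruloid-only. No test of this difference was made, since genes are not replicates.

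Nr1h4, which encodes the bile acid receptor FXR, had 4 and 5 p300 peaks in the mESC libraries and 4 and 3 in the gastruloid libraries. These counts overlap, yet most of the regions did not coincide, with 3 mESC-only, 2 gastruloid-only and 1 shared. The strongest mESC-only p300 region of all 38 genes lay here, inside the gene at chr10:89481530-89481942, with folds of 12.3 and 10.8 and 64 and 39 fragments at the summit. A gastruloid-only region at chr10:89491198-89491815, also inside the gene, had folds of 15.4 and 18.4 and 104 and 89 fragments. It coincided with a gastruloid-only RXRα region, with folds of 19 and 5.76 and 64 and 13 fragments, the strongest of its class. The shared region, also inside the gene, was the strongest p300 region of mESCs at Nr1h4. Its folds were 17.2 and 18.3 in mESCs and 8.46 and 10.1 in gastruloids. RXRα coincided with it in mESCs (10.7 and 9.39), and also with an mESC-only p300 region near the gene end (5.05 and 4.37). The bile acid receptor locus thus carried p300 in both cell types at largely different positions, with RXRα at the strongest p300 position of each cell type.

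**Figure D3:**
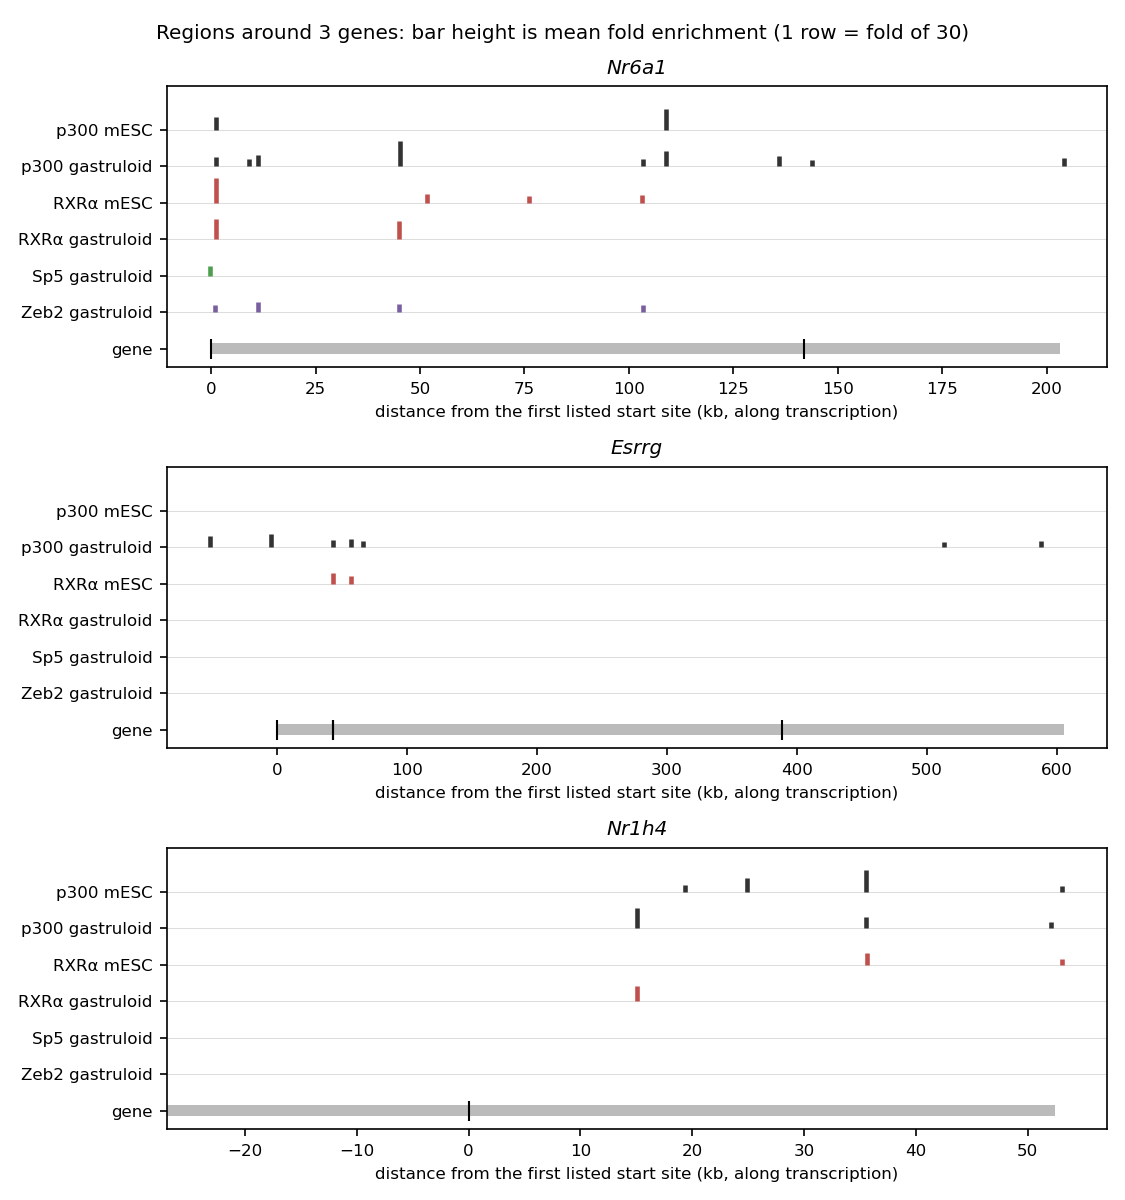
Regions around Nr6a1 (top), Esrrg (middle) and Nr1h4 (bottom), by distance in kb from the first start site of the gene in the promoter table (x axis, along transcription), 1 row per group; the height of each mark is the mean fold enrichment of 2 replicates, the grey bar is the gene and black ticks are start sites. At Nr6a1 the tallest gastruloid p300 mark (folds of 19.6 and 21.6) stands above RXRα and Zeb2 marks, Esrrg has p300 marks in gastruloids only, and at Nr1h4 the p300 marks of the 2 cell types coincide at 1 place and stand apart elsewhere.

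The 3 PPAR genes encode receptors for fatty acids. Ppara, the isoform of fat oxidation, had 3 and 3 p300 peaks in mESCs and 3 and 5 in gastruloids, and these groups touch. Its strongest site lay 73909 bp upstream at chr15:85660746-85661207, a shared RXRα region with folds of 33.2 and 15.1 in gastruloids, the highest among the shared RXRα regions of gastruloids at these genes, and 10.6 and 8.28 in mESCs. A gastruloid-only p300 region, with folds of 8.72 and 15.0 and 47 and 68 fragments, covered the same place. At this upstream site RXRα was therefore listed in both cell types and p300 only in gastruloids, whereas the 1 p300 region of mESCs at Ppara (6.25 and 6.41) lay elsewhere, 20726 bp from the gene end.

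Ppard, which is broadly expressed, had 5 and 2 p300 peaks in mESCs and 4 and 4 in gastruloids, with 3 gastruloid-only regions and 1 mESC-only region. It had 6 and 4 RXRα peaks in mESCs and 2 and 0 in gastruloids, and all 4 of its RXRα regions were mESC-only. One of the gastruloid-only p300 regions, with folds of 6.63 and 8.23, lay 11 bp from the start site and coincided with Sp5 (13.3 and 8.19). The 2 proteins thus differed in direction at this locus by region class, although the p300 peak counts of the cell types overlapped. Without the second p300 mESC replicate Ppard had 1 more mESC-only than gastruloid-only p300 region.

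Pparg, the regulator of fat cell formation, had 1 and 2 p300 peaks in mESCs and 4 and 6 in gastruloids, against 5 and 4 RXRα peaks in mESCs and 3 and 0 in gastruloids. Both groups were apart, in opposite directions. Its p300 regions were 1 gastruloid-only and 1 shared, and 3 of its 4 RXRα regions were mESC-only. The strongest RXRα region, 25151 bp from the gene end with folds of 16.4 and 9.38, was mESC-only, and the p300 region it coincided with was shared (21.4 and 18.7 in mESCs, 10.2 and 11.2 in gastruloids).

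Vdr, the vitamin D receptor gene, had the most RXRα regions of the 38 genes in mESCs, 6 regions from 7 and 6 peaks. In gastruloids the libraries gave 2 and 0 peaks and no region, and 5 of the 6 regions were mESC-only. Their folds were low, from 2.93 to 7.63 in the first replicate and from 3.30 to 8.08 in the second. No p300 region lay at Vdr in either cell type. The p300 libraries listed 2 and 1 peaks there in mESCs and 1 and 2 in gastruloids. Of the 6 RXRα regions 4 overlapped no peak of any of the 4 p300 libraries. Zeb2 (10.2 and 7.49) and Sp5 (9.57 and 6.62) coincided at its start site, also without p300. The p300 peaks listed at Vdr thus formed no region, whereas those of RXRα in mESCs and of Sp5 and Zeb2 in gastruloids did.

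The remaining partners were given by their counts, after their values were seen. Thra, a thyroid hormone receptor gene, had 1 and 1 p300 peaks in mESCs and 4 and 4 in gastruloids, with 3 gastruloid-only regions, and 3 and 3 RXRα peaks in mESCs against 2 and 0 in gastruloids. Thrb, the other thyroid hormone receptor gene, had 1 gastruloid-only, 1 mESC-only and 1 shared p300 region. Its promoter window shown above lay under a p300 region of gastruloids and an RXRα region of mESCs that were counted for another gene. Nr1h2 (the oxysterol receptor LXRβ) had 2 mESC-only p300 regions upstream and 1 gastruloid-only region at its start site, with folds of 8.54 and 9.03. Nr1i2, the xenobiotic receptor PXR, had 1 shared p300 region and 1 in gastruloids that overlapped an mESC peak but no mESC region. Thra and Nr1d1 overlap at their ends, so regions inside Thra can be assigned to Nr1d1, and the thyroid and clock receptor counts at this locus are uncertain in this respect.

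The NR4A genes encode orphan receptors that are switched on quickly by many stimuli. Nr4a1 had 5 and 3 p300 peaks in mESCs and 3 and 4 in gastruloids, 1 mESC-only and no gastruloid-only region. Its strongest mESC region lay 2573 bp beyond the gene end, with folds of 20.4 and 16.8 and 285 and 186 fragments, and it overlapped a gastruloid peak but no gastruloid region. At its promoter p300 (9.54 and 11.3), Sp5 (6.36 and 5.36) and Zeb2 (3.81 and 3.69) coincided in gastruloids, and the 3 proteins met again 231 bp from the upstream gene end, with p300 at 7.05 and 8.66. Without the first p300 mESC replicate Nr4a1 had 1 more gastruloid-only than mESC-only region. Nr4a2 had 0 and 0 p300 peaks in mESCs and 2 and 2 in gastruloids, with 1 gastruloid-only region at the start site (5.46 and 8.98). RXRα was listed at this promoter in both cell types, with folds of 4.98 and 5.19 in mESCs and 8.65 and 4.68 in gastruloids. Nr4a3 had 0 and 0 against 1 and 2 p300 peaks, the gastruloid-only region coinciding with Sp5 (9.02 and 6.19). Nr4a2 and Nr4a3 therefore had no p300 peak in mESCs and 1 gastruloid-only region each.

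Steroid receptor genes had 9 gastruloid-only and 3 mESC-only p300 regions and no RXRα region in gastruloids. Over all genes 71.1% of such p300 regions were gastruloid-only, and 8.74% of genes had an RXRα region in gastruloids. These counts rest on 5 genes and are not read as a trait of steroid receptor loci. All 5 genes were named after their values were seen. Nr3c1, the glucocorticoid receptor gene, had 1 and 1 p300 peaks in mESCs and 4 and 4 in gastruloids, with 3 gastruloid-only regions and 1 shared. Nr3c2, the mineralocorticoid receptor gene, had 3 and 2 against 6 and 7 peaks, and its strongest gastruloid-only region, inside the gene, had folds of 12.5 and 15.6. Pgr, the progesterone receptor gene, had 1 and 1 against 3 and 3 peaks, with 3 gastruloid-only regions and 1 mESC-only region. These 3 genes were apart in the same direction in all libraries. The estrogen receptor gene Esr1 had 2 and 1 p300 peaks in mESCs and 0 and 1 in gastruloids, and no region of any group other than 1 mESC-only p300 region (7.55 and 5.71). With regions assigned by start site Esr1 had 1 more gastruloid-only than mESC-only region. Esr2 had 1 of each class, and at its start site the gastruloid-only p300 region (3.44 and 4.72) coincided with Zeb2 (8.91 and 8.55).

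The estrogen-related receptors bind DNA without estrogen and govern energy metabolism. Esrrg had 0 and 0 p300 peaks in mESCs and 7 and 10 in gastruloids. All 7 of its p300 regions were gastruloid-only, the most of any of the 38 genes, and none held RXRα, Sp5 or Zeb2 in gastruloids. The strongest lay 4243 bp upstream at chr1:187604019-187604456, with folds of 9.66 and 12.6 and 54 and 50 fragments. RXRα was listed in mESCs at 2 places in the gene, with folds of 9.05 and 9.28 at the first, and each of them carried a p300 region in gastruloids. Esrra, the related gene, had 1 p300 region at its start site that was shared, with folds of 5.81 and 6.45, where RXRα (9.83 and 4.24), Sp5 (7.77 and 5.04) and Zeb2 (8.39 and 6.77) all coincided in gastruloids. The 2 estrogen-related genes thus differed, 1 with 7 gastruloid-only p300 regions and 1 with a single shared region that RXRα, Sp5 and Zeb2 overlapped. At Esrrg a p300 summit of gastruloids also lay in a listed promoter window, and at Esrra the Zeb2 region did not reach the promoter window. The territory was 324 kb at Esrrg and 6.16 kb at Esrra, and its part in this difference was not tested.

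**Figure D4:**
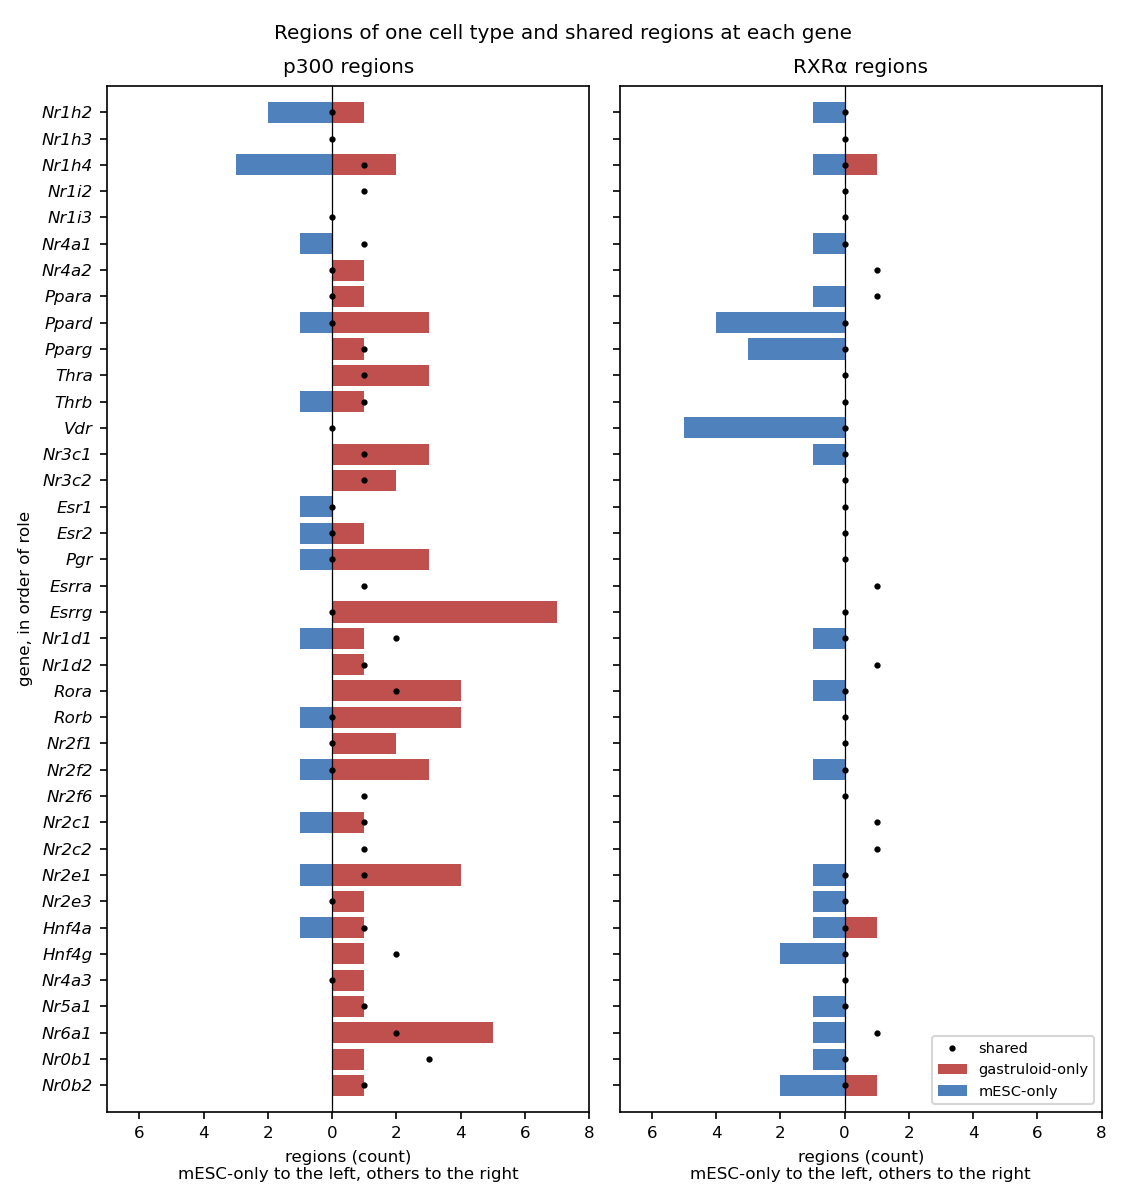
Number of p300 regions (left) and RXRα regions (right) at each gene (y axis, in order of role): gastruloid-only as red bars to the right, mESC-only as blue bars to the left and shared as black points (x axis, count). Red bars prevail for p300, with 7 at Esrrg and 5 at Nr6a1, and blue bars for RXRα, with 5 at Vdr and 4 at Ppard; red RXRα bars stand at Nr0b2, Nr1h4 and Hnf4a, 1 each.

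The clock-linked receptors repress (Nr1d1, Nr1d2) or activate (Rora, Rorb) the core clock genes through the same response elements. They had 10 gastruloid-only and 2 mESC-only p300 regions, where 71.1% of such regions over all genes were gastruloid-only. Nr1d1 had 4 and 4 p300 peaks in mESCs and 4 and 5 in gastruloids, with 1 region of each class and 2 shared, so its counts did not part the cell types. It held the strongest Sp5 region of the 38 genes, 1310 bp inside the gene at chr11:98773760-98774312, with folds of 20.1 and 14.2 and 249 and 172 fragments, over a gastruloid-only p300 region of low fold (3.62 and 4.16). Of its 4 RXRα regions in mESCs 3 overlapped a gastruloid peak but no gastruloid region, and 1 was mESC-only. All but the region 529 bp from the gene end had their summits inside the neighbouring gene Thra.

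Nr1d2 had 1 and 1 p300 peaks in mESCs and 2 and 2 in gastruloids. Near its start site all 4 proteins were listed in gastruloids. The p300 region (folds of 9.61 and 9.79) and the Sp5 region (9.15 and 8.32) reached over that site. The regions of RXRα (22.5 and 10.2) and of Zeb2 (5.25 and 5.25) lay inside the gene and stopped short of it. In mESCs p300 (4.01 and 4.86) and RXRα (9.60 and 7.86) were also listed near the start site. The half-site shown above for Nr1d2 lies upstream of the start site, and the strongest RXRα summits lay 776 bp (gastruloids) and 751 bp (mESCs) downstream of it, so the region over the window in mESCs was not centred on the half-site.

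Rora had 5 and 2 p300 peaks in mESCs and 10 and 13 in gastruloids, with 4 gastruloid-only, no mESC-only and 2 shared regions. One Sp5 region of Rora (9.58 and 5.02) coincided with Zeb2 (8.29 and 6.59) and p300 (5.73 and 8.76) inside the gene, and the other, 1399 bp from the gene end (4.60 and 4.02), held neither. Rorb had 1 and 1 against 4 and 6 p300 peaks, 4 gastruloid-only regions and 1 mESC-only region, all inside the gene. The strongest of these, at chr19:19062676-19063159, had folds of 7.12 and 10.3, and none held RXRα, Sp5 or Zeb2. Both ROR genes were apart between the cell types in the same direction.

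COUP-TF genes encode orphan repressors of the forming nervous system, vessels and mesoderm. Nr2f2 (COUP-TFII) had 2 and 1 p300 peaks in mESCs and 6 and 6 in gastruloids, with 3 gastruloid-only regions and 1 mESC-only region. With lists of equal length it had 1 more mESC-only than gastruloid-only region. It had 3 Sp5 regions, the most of the 38 genes, from 6 and 4 peaks. The strongest, with folds of 12.7 and 6.50, lay 20094 bp from the gene and coincided with Zeb2 (4.55 and 4.45). A gastruloid-only p300 region (3.20 and 3.68) met this Sp5 region only at its edge and did not overlap the Zeb2 region. The first Zeb2 library listed 15 peaks at Nr2f2 and the second 1. Nr2f6 had 2 and 1 against 2 and 2 p300 peaks, with no region of a single cell type. Both of its Sp5 regions lay at p300 regions, the stronger one near the start site with folds of 8.78 and 7.36. Nr2f1, named after its values were seen, had 2 gastruloid-only p300 regions about 1 kb apart, with folds of 10.7 and 15.2 and of 8.93 and 10.5, the second of them held by Zeb2 (7.08 and 5.46).

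The other NR2 genes comprise testicular receptors, retinal and neural stem cell receptors and the HNF4 regulators of liver and gut. They had 8 gastruloid-only and 3 mESC-only p300 regions, near the share over all genes, where 71.1% of such regions were gastruloid-only. Nr2c1 (TR2) had 2 and 2 p300 peaks in each cell type but 1 gastruloid-only region, at the start site, 1 mESC-only region and 1 shared. At the start site RXRα was listed in both cell types, with folds of 11.2 and 11.8 in mESCs and 16.1 and 8.18 in gastruloids, and Zeb2 in gastruloids (10.2 and 4.55). Its shared p300 region, inside the gene at chr10:94172681-94173152, was the strongest shared one of gastruloids at these genes, with folds of 13.4 and 15.7. A further RXRα region of mESCs, 12147 bp inside, had folds of 12 and 11.9 and overlapped a gastruloid RXRα peak but no gastruloid region.

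Nr2c2 (TR4) had 1 and 1 p300 peaks in each cell type and a single shared region near the start site. RXRα there had folds of 19.6 and 17.9 in mESCs, with 274 and 230 fragments, and 23.2 and 12.5 in gastruloids, with 216 and 47 fragments. Sp5 (7.87 and 4.68) and Zeb2 (6.75 and 5.73) lay at the same place. The paired genes TR2 and TR4 thus both had RXRα regions that overlapped the promoter sequences shown above, which hold no exact half-site in their 250 upstream bases. The RXRα summits lay outside these sequences. In mESCs and gastruloids they lay 185 and 202 bp downstream of the start site at Nr2c1, and at -889 and -885 bp at Nr2c2. The bases at the summits were not read.

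Nr2e1 (TLX), a regulator of neural stem cells, had 3 and 2 p300 peaks in mESCs and 6 and 8 in gastruloids, with 4 gastruloid-only regions, 1 mESC-only region and 1 shared. The strongest gastruloid-only one lay 47544 bp upstream at chr10:42630843-42631338, with folds of 8.14 and 12.2, and coincided with Sp5 (9.13 and 8.13). Of its 3 Zeb2 regions the one with the highest folds, 7.89 and 5.01, lay at no p300 region, another (7.63 and 4.78) lay over the shared p300 region and the last (4.40 and 5.62) over a gastruloid-only one. Hnf4a, a regulator of endoderm and liver, had 3 and 3 p300 peaks in each cell type, so counts did not part them. One gastruloid-only RXRα region inside it, with folds of 8.98 and 4.63, coincided with a gastruloid-only p300 region (4.25 and 4.32) of 16 and 12 fragments. Hnf4g and Nr2e3, named after their values were seen, had 1 gastruloid-only and no mESC-only p300 region each.

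Nr6a1 (GCNF), a receptor required for the silencing of pluripotency genes and for trunk development, had the most regions of the 38 genes. It had 4 and 3 p300 peaks in mESCs and 11 and 10 in gastruloids, with 5 gastruloid-only, no mESC-only and 2 shared regions. The strongest gastruloid-only p300 region of all 38 genes lay inside it at chr2:38880900-38881598, 45190 bp from the gene end, with folds of 19.6 and 21.6 and 232 and 161 fragments. RXRα (22.7 and 7.57, 137 and 15 fragments) and Zeb2 (6.97 and 6.61) coincided there, and the RXRα region overlapped an mESC peak but no mESC region. Near the start site a shared p300 region (6.34 and 8.39) held RXRα, Sp5 and Zeb2, and RXRα there had folds of 21.4 and 11.4 in gastruloids and 21.2 and 19.8 in mESCs. All 4 of its Zeb2 regions coincided with p300, at 3 gastruloid-only regions and 1 shared one. RXRα peaks there numbered 14 and 4 in the mESC libraries and 9 and 2 in the gastruloid ones, which overlap. The locus therefore parted the cell types for p300 and not for RXRα.

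Nr5a1 (SF1), the gonadal and adrenal receptor, is the neighbour of Nr6a1. It carried the strongest shared p300 region of mESCs, 23683 bp away at chr2:38668664-38669306, with folds of 24.5 and 22.5 in mESCs and 9.59 and 11.3 in gastruloids. RXRα lay there in mESCs only (9.71 and 7.60), and Sp5 in gastruloids (8.03 and 6.47). Heights in separately made lists are not on a common scale, so these folds do not measure a change. With lists of equal length Nr5a1 had 1 more mESC-only than gastruloid-only p300 region.

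Nr0b1 (DAX1) and Nr0b2 (SHP) lack a DNA-binding domain and act on other receptors. Nr0b1, which belongs to the pluripotency network of mESCs, had 3 and 3 p300 peaks in mESCs and 4 and 4 in gastruloids, and 3 and 1 RXRα peaks in mESCs against 0 and 0 in gastruloids. Its p300 regions were 3 shared and 1 gastruloid-only. The strongest mESC-only RXRα region of the 38 genes lay inside it at chrX:86193423-86193954, with folds of 21 and 17.6 and 214 and 113 fragments. p300 was shared at that place, with folds of 20.9 and 19 in mESCs and 10.7 and 15.1 in gastruloids. Nr0b1 thus kept its p300 regions in gastruloids, while no RXRα peak was listed there in either gastruloid library. Of the 38 genes, Pparg, Thra and Nr0b1 were the 3 with more p300 and fewer RXRα peaks in all gastruloid libraries. This share was near the 7.4% found over all genes. At Nr0b2 a gastruloid-only RXRα region (18.4 and 5.50) lay 812 bp from the gene end over a gastruloid-only p300 region (5.16 and 4.75). The strongest Zeb2 region of the 38 genes, with folds of 13.3 and 7.96 and 79 and 24 fragments, lay 5053 bp away over a shared p300 region (7.92 and 8.13 in gastruloids).

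Nearly all RXRα regions found in 1 cell type came from mESCs. The 38 genes had 30 mESC-only and 3 gastruloid-only regions, the latter at Nr0b2, Nr1h4 and Hnf4a, so that 9.09% of the 33 were gastruloid-only, against 2.58% of 14553 assigned regions. More mESC-only regions were found at 17 of 19 genes with either class (89.5%, against 97%), equal numbers at Nr1h4 and Hnf4a, and more gastruloid-only regions at 0 (against 1.94%). In peak counts both gastruloid libraries lay below both mESC libraries at 8 genes (21.1%, against 22.3%) and above at 0 (against 0.379%). These shares were near the background, with the exception of the gastruloid-only share, which rests on 3 regions.

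This direction changed with the lists used. When the second gastruloid list was left out, a gastruloid region needed a peak of the first list alone. By that rule 43 regions were gastruloid-only beside 30 mESC-only ones, and 17 genes leaned to gastruloids against 8 to mESCs. With all 4 RXRα lists shortened to 3111 peaks the 38 genes had 6 gastruloid-only and 2 mESC-only regions, the reverse order, where gastruloid-only regions made up 30.3% of both classes over all genes. Without the first gastruloid list there were 5 and 57, and without the second mESC list 3 and 70. Counts with a list left out are given here without the share over all genes, and the cause of the changes was not tested. The share of a library's assigned peaks at the 38 genes was 0.263% and 0.275% in mESCs and 0.366% and 0.473% in gastruloids, so the gastruloid libraries were the higher by 0.15 points (exact two-sided permutation p = 0.33, the smallest possible). The last of these shares stands for 13 of 2750 peaks.

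In all, 7 regions were shared, at Nr1d2, Nr2c1, Nr2c2, Nr4a2, Nr6a1, Ppara and Esrra, and 5 of the 7 lay within 1 kb of a gene end, where 48.2% of all shared RXRα regions lay. All 7 carried p300 in gastruloids. The shared RXRα regions had median folds of 21.4 and 10.2 in the gastruloid libraries and 10.6 and 8.28 in the mESC libraries. Of the receptors that pair with RXR, 3 of 13 had an RXRα region in gastruloids and 11 of 13 in mESCs, and of the other genes 7 of 25 and 21 of 25. RXRα was thus listed at a similar share of the loci of its partners and of the other receptors, and no test was made.

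**Figure D5:**
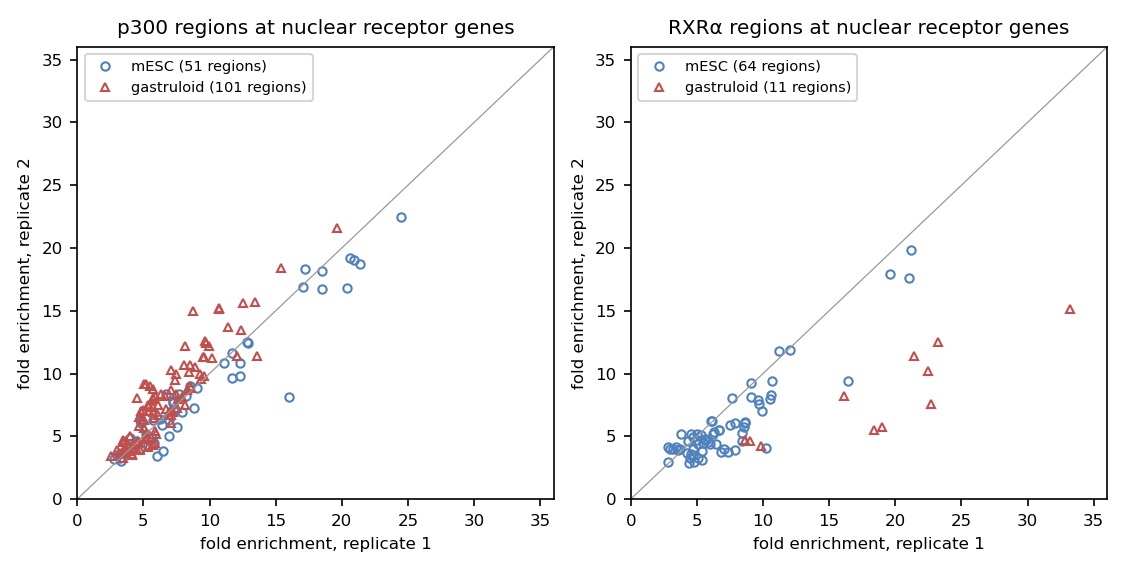
Fold enrichment of each p300 region (left) and RXRα region (right) at the 38 genes in replicate 1 (x axis) and replicate 2 (y axis), for mESCs (blue circles) and gastruloids (red triangles); the grey line marks equal folds. p300 regions lie along the line up to 24.5 and 22.5 at Nr5a1, whereas all 11 RXRα regions of gastruloids lie below it, up to 33.2 and 15.1 at Ppara.

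In gastruloids RXRα was found at p300 regions wherever it was found. All 11 RXRα regions coincided with p300, against 86% of all assigned ones, as did 22 of 28 Sp5 regions (78.6%, against 84.9%) and 18 of 26 Zeb2 regions (69.2%, against 78.1%). Among the 101 p300 regions of gastruloids 11 held RXRα (10.9%, against 4.28%), 22 held Sp5 (21.8%, against 20.9%) and 18 held Zeb2 (17.8%, against 17.1%). No factor was found at 65 regions, 1 at 25, 2 at 7 and all 3 at 4, namely at Nr1d2, Nr2c2, Nr6a1 and Esrra. The summits at Esrra, Nr1d2 and Nr6a1 lay 77, 443 and 1126 bp downstream of a start site, and that at Nr2c2 lay at -381 bp. Without the second RXRα list 45 of the 101 held RXRα, and without the second Zeb2 list 46 held Zeb2.

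In mESCs RXRα coincided with 22 of the 51 p300 regions (43.1%, against 37.6%), and 23 of the 64 RXRα regions coincided with p300 (35.9%, against 42.4%). By class, RXRα was at 16 of the 27 shared p300 regions of mESCs, 4 of the 17 mESC-only ones and 2 of the 7 others. Of the 30 mESC-only RXRα regions 11 were at a p300 region of mESCs, and 7 were at a place where a p300 region was found in gastruloids. Of the 7 shared RXRα regions 4 were at p300 in mESCs, and all 7 places carried p300 in gastruloids. The counts by class have no share over all genes beside them, so they are not read as a trait of the 38 genes.

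Of the 38 genes 6 had 3 or more RXRα regions in mESCs (Nr1d1, Nr6a1, Ppara, Ppard, Pparg and Vdr), where 12.4% of all genes did. Regions of p300 in a single cell type numbered 5 or more at 5 genes (Nr1h4, Nr2e1, Nr6a1, Rorb and Esrrg; 13.2%, against 10.5%), and 5 had 2 or more Sp5 regions (Nr1d1, Nr2f2, Nr2f6, Nr4a1 and Rora), where 6.6% of genes did. Zeb2 had 2 or more regions at 3 (Nr2e1, Nr4a1 and Nr6a1), where 7.05% of genes did. Nr6a1 was in 3 of these lists.

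Exact half-sites were as common in these promoters as in others. Of the 46 promoter windows of the 34 genes 7 held AGGTCA on either strand (15.2%, against 14.7% of 21263 windows), at Nr0b1, Nr1d2, Nr1h4, Nr6a1, Pparg and Thrb. Direct repeats of AGGTCA spaced by 0 to 5 bases and the inverted repeat AGGTCANTGACCT were searched on both strands, each match also counting as half-sites. None was found in these 46 windows, and no repeat was found in more than 10 of all windows. Windows under an RXRα region of mESCs held a half-site in 16.8% of cases over all genes, windows without one in 14.3%, and for gastruloids the shares were 15.6% and 14.7%. Of the 4 windows under a gastruloid RXRα region shown above none held one, and of the 12 windows under an mESC one 2 did, those of Nr1d2 and Thrb. These letters are a description of the windows only.

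Genes that work with the receptors were read from lists that hold none of the 38. The 10 coactivator genes (such as Ncoa1, Ncoa2, Crebbp and Med1) had 18 gastruloid-only and 8 mESC-only p300 regions, and the 8 corepressor genes 23 and 22. Among the corepressors Tbl1xr1 had 2 gastruloid-only and 8 mESC-only p300 regions. The 5 chaperone genes of steroid receptors had 5 and 3, with Fkbp5 at 3 and 2, and the 7 ligand enzyme genes had 5 and 2, with Dio3, which inactivates thyroid hormone, at 2 and 0. The 8 receptor genes that the choice of members left out had 31 and 18, with Esrrb at 6 and 8, Rxra at 6 and 0 and Nr5a2 at 9 and 5. For RXRα none of the coactivator, corepressor, chaperone, ligand enzyme or left-out receptor genes had a gastruloid-only region. The lists had 11, 30, 11, 1 and 19 mESC-only regions. Since only 2.58% of such RXRα regions over all genes were gastruloid-only, this absence is not read as a trait of these lists.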

How the data were processed

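The data were 14 deposited peak lists, 1 per library, of 12 immunoprecipitations and 2 inputs. The submitters' processing notes name MACS2 2.2.7, BWA 2.2.1 and fastp 0.20.1, and the build GRCm38.p6 (mm10). The tools' roles, the control and the sequencing depth are not given in the sources used here. The deposited score of each peak follows its −log10 q. Fold enrichment, as deposited, is the ratio between summit signal and local background, and −log10 values of p and of q were deposited beside it. The last deposited column gives the summit.

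Here, peaks on 21 chromosomes were used, and peaks at a peak of either input were removed. Regions needed an overlap of at least 1 bp between both replicates. Fragments at a summit were recovered from fold and −log10 p, and values not whole within 0.01 are not printed. Counts per peak limit precision, since a summit of 16 fragments carries a counting error of about the square root of that number. Genes were RefSeq protein-coding genes of GRCm38.p6, with no exons used. The class assignment recovered every simulated region on simulated data. The 38 genes and all lists were chosen with earlier results of these data known, so counts are read beside the share of all genes, and nothing here is independent support for a pattern. Genes with sentences of their own had 5 or more p300 regions of a single cell type, 3 or more RXRα regions in mESCs, any RXRα region in gastruloids, 2 or more Sp5 or Zeb2 regions, or the strongest region of a group and class (23 of 38). The only test was an exact permutation test over libraries. Alternatives were a −log10 q of at least 5, input peaks kept, an overlap of 50 percent, a window of 20 kb, lists of equal length, start sites in place of gene ends, and each library left out. Python 3.11.15, pandas 2.3.3, numpy 2.4.6 and scipy 1.17.1 were used.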

Additional observations from a re-analysis of the deposited data

Results flagged for a closer look

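At 3 of the 38 genes the p300 and RXRα peak counts of all libraries moved in opposite directions between the cell types. This share was near the 7.4% of all genes, so the pattern is not read as a trait of the 38 genes. At Pparg the mean number of p300 peaks in the gastruloid libraries minus that in the mESC libraries was 3.5, and the same difference for RXRα was -3.0. At Thra, which encodes a thyroid hormone receptor, the differences were 3.0 for p300 and -2.0 for RXRα. At Nr0b1 they were 1.0 and -2.0. In each case the difference between the proteins was not tested. Some p300 and RXRα regions with summits inside Thra were counted for Nr1d1, so the Thra counts are uncertain in this respect. Neither of the 2 RXRα regions of mESCs counted for Thra was mESC-only. The RXRα values include the short second gastruloid list, which listed 0 peaks at each of the 3 genes. The first gastruloid list gave 3 peaks at Pparg, 2 at Thra and 0 at Nr0b1, against at least 4, 3 and 1 in the mESC libraries.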

How the results depend on the processing

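The 38 loci rest on few regions, list length differs between libraries, and depth is unknown, so absence from a list does not show absence of binding. Of the values that answer a comparison, 128 under an alternative stayed near the reported one and 40 moved. The cause of these moves was not tested.

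With the p300 lists cut to 35371 peaks the 38 genes had 39 gastruloid-only p300 regions, 13 genes with more gastruloid-only and 8 with more mESC-only. With the RXRα lists cut to 3111 peaks 6 regions were gastruloid-only and 2 mESC-only, with 6 genes leaning to gastruloids and 2 to mESCs. With the lists of all 6 groups cut to 3111 peaks, genes with a region numbered 5 (p300 in mESCs), 2 (p300 in gastruloids), 5 (RXRα in mESCs), 4 (Sp5) and 5 (Zeb2), and the p300 regions of gastruloids held RXRα at 2, Sp5 at 0 and Zeb2 at 0. With the mESC lists of both proteins cut to 28112 peaks RXRα was at 11 p300 regions of mESCs. Under the first and second of these cuts the direction turned at Nr2f2 and Nr5a1 for p300 (gastruloid-only minus mESC-only, -1 each) and at Nr0b2, Nr6a1 and Ppara for RXRα (1 each).

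A minimum −log10 q of 5 left 19 mESC-only RXRα regions, Zeb2 was at 10 genes and at 6 p300 regions of gastruloids, RXRα was at 13 p300 regions of mESCs, and the share of peaks at the 38 genes differed by 0.0455 points for p300 and 0.267 points for RXRα. Within 20 kb there were 36 gastruloid-only and 11 mESC-only p300 regions and a p300 share difference of 0.0197 points. With start sites Esr1 turned to 1 for p300.

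Leaving out 1 library at a time, gastruloid-only p300 regions ran from 63 to 95, mESC-only ones from 18 to 31, genes leaning to gastruloids from 18 to 26 and genes leaning to mESCs from 3 to 7. For RXRα the same values ran from 3 to 43, 30 to 70, 0 to 17 and 8 to 27. Genes with an RXRα region in gastruloids ran from 11 to 35 and with Zeb2 from 21 to 32, and p300 regions with RXRα from 11 to 45 and with Zeb2 from 17 to 46. Gastruloid-only minus mESC-only p300 regions ran from -2 to 1 at Nr4a1 (1 without the first mESC library), and turned to -1 at Ppard without the second. The same difference for RXRα ran from -4 to 1 at Nr1d1, -2 to 1 at Nr2e1, -4 to 3 at Nr2f2 and -5 to 2 at Rora, each highest without the second RXRα gastruloid library. No paired analysis was possible because these counts come from no test, and the labels tie no replicate numbers across groups.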

Other observations

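Some binding at these genes fell outside the nearest-end rule. The last listed start site of Esrrg, inside the gene and beyond 100 kb from either end, lay under a p300 region of gastruloids, which the counts above leave out. The promoter window of Nr1h3, the oxysterol receptor gene with no assigned region, lay under an Sp5 region whose nearest gene end was that of another gene. The promoter of Esrra lay under a p300 region in mESCs that likewise counted for another gene, so the shared class of its gastruloid region came from a region not listed for it. At the first listed promoter of Thrb a p300 region of gastruloids and an RXRα region of mESCs also counted for another gene. These 4 genes were chosen after their values were seen.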
